A study of Homo sapiens with 8 samples.

Results

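Receptor tyrosine kinases span the cell membrane, bind a growth factor outside the cell and, once paired, phosphorylate tyrosines that recruit adaptor proteins inside it. The adaptors pass the signal to the RAS to ERK cascade, which drives division, and to PI3K and AKT, which act on growth and survival. Rhabdoid tumors carry few mutations apart from the loss of SMARCB1, and kinases of this class have long been studied in them as drug targets. The 10 receptors described here were chosen by name as those discussed for rhabdoid cells, namely FGFR1, FGFR2, FGFR3, FGFR4, PDGFRA, PDGFRB, MET, IGF1R, EGFR and AXL. The choice was made with earlier results of these data known. They were 10 of 69168 genes listed, and all 10 passed the expression filter that left 15931 genes for testing.

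RNA was sequenced from G401 cells, an established line grown from a rhabdoid tumor of the kidney. Both derivatives compared here carried a Tet-On cassette, which doxycycline (Dox) turns on, with SMARCB1 in the one line and GFP in the other. SMARCB1 is a core subunit of the SWI/SNF chromatin remodelling complexes, and GFP served as a control protein. Cells took 0.1 µg/ml Dox or the carrier DMSO over 12 h, which gave the groups SMARCB1 DMSO, SMARCB1 Dox, GFP DMSO and GFP Dox with 2 libraries each. All 4 groups shared the G401 background without SMARCB1 of its own and the Tet-On cassette, and the sources used here do not say whether a line was 1 clone. The material of a library was pooled from several plates of cells. Nothing states that replicates came from separate cultures grown apart, so p-values measure the spread between these libraries, which may be technical.

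Libraries held 29632090 to 37597477 counts assigned to genes. SMARCB1 had 10 and 21 counts in SMARCB1 DMSO, 30474 and 29383 on Dox and 0 in the 4 libraries of the GFP line, where a floor of 3 counts corresponds to 0.0798 to 0.101 CPM (reads of a gene relative to the assigned reads of its library). GFP reads were not analysed here, so the label of the GFP line was checked only through the absence of SMARCB1. The markers looked for in rhabdoid cells (VIM, KRT8, KRT18 and SMARCA4) were present in every library, whereas PTPRC, PECAM1, EPCAM and ALB, markers of leukocytes, endothelium, epithelium and hepatocytes, had at most 7 counts. CDH1, a further epithelial gene, had 7 to 31 counts. Mitochondrial genes took 18.9% to 23.9% of the counts in 7 libraries and 27.9% in SMARCB1 DMSO replicate 1, which stood apart.

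The promoters shown first are those of the receptors whose Dox call in the SMARCB1 line held under all 12 alternatives (below). They differ among themselves in base composition. RefSeq promoter sequences (GRCh38.p14) were found for 9 of the 10 receptors. FGFR1 had no entry. Each sequence below covers the 250 bases before a RefSeq transcription start, read 5′ to 3′ on the strand of the gene. Capitals mark the GC box GGGCGG, to which SP1 family factors bind, and the pattern TGANTCA, each searched on both strands. With N as any base, this pattern is a loose form of the site that AP-1 (JUN and FOS proteins) binds. The chosen genes are AXL (chr19:41218973-41219222, plus strand), FGFR3 (chr4:1793043-1793292, plus strand), PDGFRA (chr4:54229043-54229292, plus strand) and FGFR2 (chr10:121598445-121598694, minus strand).
AXL: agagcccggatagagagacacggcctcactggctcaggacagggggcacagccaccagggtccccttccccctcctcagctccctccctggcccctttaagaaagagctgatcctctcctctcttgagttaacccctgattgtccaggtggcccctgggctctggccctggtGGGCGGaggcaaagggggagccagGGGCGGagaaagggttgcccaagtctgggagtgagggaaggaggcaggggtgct
FGFR3: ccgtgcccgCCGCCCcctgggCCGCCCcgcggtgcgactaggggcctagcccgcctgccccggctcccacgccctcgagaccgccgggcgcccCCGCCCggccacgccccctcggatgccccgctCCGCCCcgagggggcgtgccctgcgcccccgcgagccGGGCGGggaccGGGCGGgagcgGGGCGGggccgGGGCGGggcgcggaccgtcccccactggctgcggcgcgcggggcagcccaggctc
PDGFRA: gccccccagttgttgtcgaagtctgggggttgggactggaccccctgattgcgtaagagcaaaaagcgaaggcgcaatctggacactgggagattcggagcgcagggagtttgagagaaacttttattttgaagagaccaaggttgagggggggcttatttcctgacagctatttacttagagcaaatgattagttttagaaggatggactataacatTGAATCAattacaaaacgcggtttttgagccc
FGFR2: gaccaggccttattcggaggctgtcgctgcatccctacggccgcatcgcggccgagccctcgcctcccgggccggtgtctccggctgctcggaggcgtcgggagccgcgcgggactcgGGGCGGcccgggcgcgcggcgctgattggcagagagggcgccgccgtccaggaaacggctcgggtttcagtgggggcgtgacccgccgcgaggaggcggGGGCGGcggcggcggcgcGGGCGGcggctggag

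GC boxes were found in 8 of the 9 receptor windows and in 42.6% of 35116 promoters of the same length. The FGFR3 window held 8 of them, with 86.8% G or C and 40 CpG dinucleotides, and the FGFR2 window held 3, with 78.4% G or C and 42 CpG. The AXL window held 2 GC boxes but only 4 CpG, at 64.4% G or C. Over all promoters the median was 58% G or C and 11 CpG. Receptors not called on Dox (below) had similar traits. The FGFR4 window held 7 GC boxes at 79.6% G or C, IGF1R had 81.2% with 48 CpG, and PDGFRB had 58.4% with 9 CpG. A link between composition and response was not tested. PDGFRA was the receptor without a GC box and had the lowest G and C content, 46.8%, with 8 CpG. Its window was the one among the 9 with a match to the loose AP-1 pattern, which read TGAATCA. The same pattern was found in 6.57% of all promoters. The TATA element TATAAA, found in 10.7% of all promoters, was in none of the 4 windows shown. AXL and PDGFRA have 2 starts in the RefSeq table and FGFR2 has 5, of which 1 is shown for each. Overlap between different motifs did not occur in these 4 windows, and a match of letters does not show that a factor binds.

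On re-expression of SMARCB1 the RNA of AXL, PDGFRA and FGFR3 rose and that of FGFR2 and EGFR fell. Thus 5 of the 10 receptors were called at an adjusted p under 0.05 (edgeR quasi-likelihood test, Benjamini-Hochberg adjustment over 15931 genes), 3 higher and 2 lower. Of all genes tested, 14% were called in this comparison, 8.33% higher and 5.69% lower. The receptors' median log2 fold change was −0.06, beside 0.00 over all genes tested. The CPM of the Dox and DMSO libraries did not overlap for these 5 receptors, and 51.2% of all genes tested had groups that did not overlap. In the GFP line the same test called none of the 10 receptors and 0% of all genes. There, 266 genes had an unadjusted p under 0.05 and no receptor did. DESeq2 also called 0 genes, and edgeR called 1 when the expression filter was dropped.

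**Figure D1:**
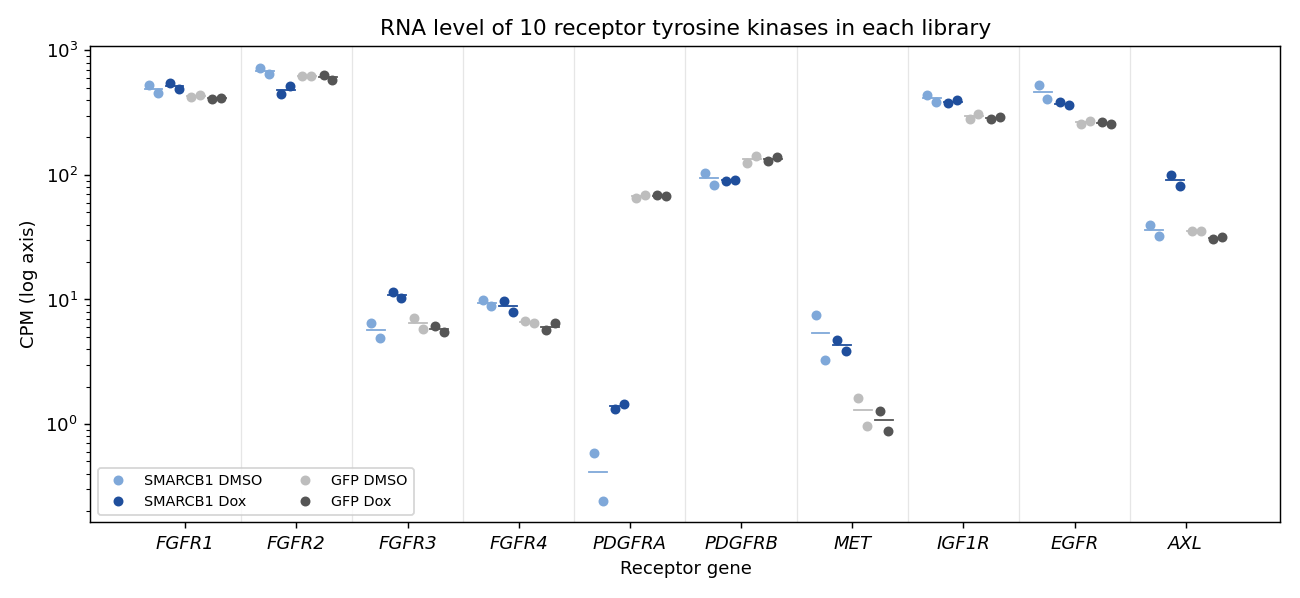
RNA level in CPM (log axis) of each receptor in the 8 libraries, with points for libraries, horizontal bars for group means and colors for the 4 groups. AXL sits at 99.5 and 82.0 CPM in SMARCB1 Dox and at 30.5 to 39.3 in the other 6 libraries, and PDGFRA sits below 1.5 CPM in the SMARCB1 line and above 64 in the GFP line.

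AXL, a receptor of the TAM family that binds GAS6 and is often high in mesenchymal tumor cells, showed the rise with the lowest adjusted p. The gene lies at chr19:41219223-41261766 (GRCh38, plus strand). AXL had 39.3 and 32.4 CPM (scaled by edgeR's TMM factors) in SMARCB1 DMSO and 99.5 and 82.0 on Dox. The GFP line had 35.4 and 35.5 CPM of AXL without and 30.5 and 31.6 with Dox. Thus both SMARCB1 Dox libraries lay far above the other 6, and within the GFP line the Dox libraries were the lower ones. The mean rose from 35.9 ± 4.92 to 90.8 ± 12.4 CPM (SD, n = 2), a 2.53-fold rise (95% interval 2.18 to 2.94; log2 1.34 ± 0.103, SE; adjusted p = 1.66e-08, edgeR). In the GFP line the log2 change was −0.19, with an unadjusted p of 0.0794 from the same edgeR fit and an adjusted p of 1. The Dox effects of the lines differed by 1.53 ± 0.146 on the log2 scale (adjusted p = 6.42e-06, edgeR). Of the exon bases of AXL, 1.31% are shared with a non-coding gene on the other strand, and the strand option of the counting is not given in the sources used here.

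FGFR1 to FGFR4 bind fibroblast growth factors and moved in different directions. FGFR3 (chr4:1793293-1808872, plus strand) had 6.48 and 4.91 CPM in SMARCB1 DMSO and 11.5 and 10.3 on Dox. It stayed between 5.52 and 7.11 CPM in the 4 libraries of the GFP line. Both SMARCB1 Dox libraries were thus above all others, at 411 and 359 counts against 162 to 240. FGFR3 rose 1.92-fold (95% interval 1.52 to 2.43; log2 0.94 ± 0.163; adjusted p = 0.000362, edgeR). The Dox effects of the lines differed by 1.08 ± 0.233 (log2; adjusted p = 0.00755, edgeR).

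FGFR2 (chr10:121478332-121598458, minus strand), abundant in these cells, went the other way. It had 728 and 641 CPM in SMARCB1 DMSO and 450 and 517 on Dox. In the GFP line it had 624 and 618 CPM without and 632 and 582 with Dox. Both SMARCB1 Dox libraries were the lowest of the 8. The mean fell from 685 ± 61.7 to 483 ± 47.8 CPM, to 0.706 of the DMSO level (95% interval 0.62 to 0.804; log2 −0.50 ± 0.0898; adjusted p = 0.000503, edgeR). The Dox effects of the lines differed by −0.47 ± 0.127 (log2; adjusted p = 0.0331, edgeR). That call on the difference was lost without 6 of the 8 libraries, each left out alone, at log2 values of −0.52 to −0.37 and adjusted p-values of 0.064 to 0.193. The libraries were SMARCB1 DMSO replicate 1, SMARCB1 Dox replicate 1 and each library of the GFP line. It was also lost with library totals in place of TMM (−0.39, adjusted p = 0.095).

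FGFR1 and FGFR4 were not called. FGFR1, on the minus strand of chromosome 8, had 527 and 459 CPM in SMARCB1 DMSO, 546 and 495 on Dox and 411 to 439 in the GFP line. Its SMARCB1 Dox and DMSO libraries overlapped, and the log2 change was 0.08 with a 95% interval of −0.10 to 0.26 (adjusted p = 0.632, edgeR). FGFR4 (chr5:177086905-177098144, plus strand), the receptor for FGF19 in the liver, had 9.95 and 8.83 CPM in SMARCB1 DMSO and 9.75 and 7.98 on Dox. Its log2 change was −0.08 with a 95% interval of −0.39 to 0.22 (adjusted p = 0.796, edgeR). These intervals leave room for changes of the size seen for EGFR in FGFR4 but not in FGFR1.

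Of the receptors for platelet-derived growth factors, PDGFRA was nearly silent in the SMARCB1 line. PDGFRA (chr4:54229280-54298245, plus strand) had 17 and 8 counts in SMARCB1 DMSO and 47 and 51 on Dox, against 2127 to 2666 in the GFP line. This is 0.583 and 0.243 CPM without Dox and 1.32 and 1.46 CPM with Dox. PDGFRA thus rose on Dox 3.43-fold (95% interval 2.24 to 5.24; log2 1.78 ± 0.295; adjusted p = 0.00023, edgeR), from a few reads to a level still far below the 69.1 and 67.5 CPM of GFP Dox. From the pooled counts of 25 and 98 the ratio was 3.45, with an exact binomial 95% interval of 2.21 to 5.59 that covers counting error only. Without SMARCB1 DMSO replicate 1 the log2 change was 2.50, and without replicate 2 it was 1.25 (adjusted p = 0.011, edgeR). The Dox effects of the lines differed by 1.75 ± 0.312 (log2; adjusted p = 0.00148, edgeR). A readthrough gene on the same strand shares 16.1% of the exon bases of PDGFRA and had 0 counts in all 8 libraries. Reads that fall on shared bases alone were not assigned to either gene.

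PDGFRB (chr5:150113839-150155872, minus strand), the partner receptor found on pericytes and fibroblasts, had 104 and 83.6 CPM in SMARCB1 DMSO and 90.2 and 91.7 on Dox. The Dox libraries lay between those without Dox. The log2 change was −0.04 with a 95% interval of −0.24 to 0.15 (adjusted p = 0.833, edgeR).

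EGFR, MET and IGF1R bind epidermal growth factor, hepatocyte growth factor and insulin-like growth factors. EGFR (chr7:55019017-55211628, plus strand) had 529 and 405 CPM in SMARCB1 DMSO, 382 and 367 on Dox and 257 to 273 in the GFP line. The Dox libraries were the lower ones, and SMARCB1 DMSO replicate 1 was far above its partner. EGFR fell to 0.802 of the DMSO level (95% interval 0.697 to 0.924; log2 −0.32 ± 0.0977; adjusted p = 0.0323, edgeR). Without SMARCB1 DMSO replicate 1, the library with the high mitochondrial share, the log2 change was −0.11 (adjusted p = 0.542, edgeR). The call was also lost without either SMARCB1 Dox library (−0.35 and −0.29, adjusted p = 0.0946 and 0.135, edgeR). The difference of the Dox effects was −0.30 (95% interval −0.59 to −0.02; adjusted p = 0.273, edgeR).

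MET (chr7:116672196-116798377, plus strand) had 7.48 and 3.28 CPM in SMARCB1 DMSO and 4.75 and 3.83 on Dox, from 108 to 218 counts. The groups overlapped, because SMARCB1 DMSO replicate 1 was above and replicate 2 below both Dox libraries. The log2 change was −0.31 with a 95% interval of −0.90 to 0.27 (adjusted p = 0.539, edgeR). It was 0.39 without SMARCB1 DMSO replicate 1 and −0.80 without replicate 2 (adjusted p = 0.498 and 0.0363, edgeR), so its direction rested on 1 library. IGF1R (chr15:98648539-98964530, plus strand) had 436 and 389 CPM in SMARCB1 DMSO and 376 and 398 on Dox. Its groups overlapped too, with a log2 change of −0.09 (95% interval −0.26 to 0.08; adjusted p = 0.547, edgeR).

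**Figure D2:**
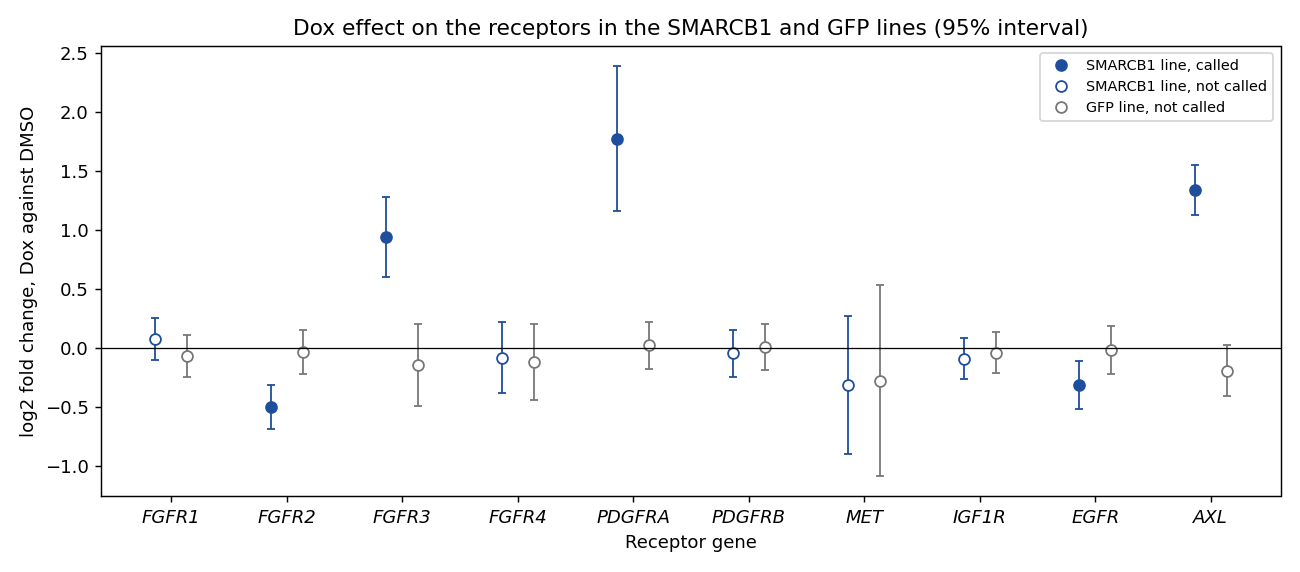
Dox effect on each receptor as the log2 fold change against DMSO, in the SMARCB1 line (blue) and the GFP line (grey), with 95% intervals and filled points for calls. In the SMARCB1 line PDGFRA (1.78), AXL (1.34) and FGFR3 (0.94) lie above 0 and FGFR2 (−0.50) and EGFR (−0.32) below, while the GFP line runs from −0.28 for MET to 0.02 for PDGFRA with no call.

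In the GFP line the log2 changes of the 10 receptors ran from −0.28 for MET to 0.02 for PDGFRA, with a median of −0.05. The interval of MET was wide, −1.08 to 0.53, at 32 to 55 counts a library. The CPM of AXL, FGFR1 and FGFR4 did not overlap between GFP Dox and GFP DMSO, which is 3 of the 10, and 26.8% of all genes tested did not overlap there. For the difference of the Dox effects 4 receptors were called, AXL, PDGFRA and FGFR3 higher and FGFR2 lower. Of all genes tested, 4.71% were called, 3.07% higher and 1.64% lower. When SMARCB1 DMSO replicate 1 was left out, 4 receptors remained called for the Dox effect, 3 for the difference and 5 for the comparison of the lines given next.

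The lines also differed from each other without Dox. In SMARCB1 DMSO against GFP DMSO, FGFR4, MET, IGF1R and EGFR were higher and PDGFRA and PDGFRB lower, 6 of the 10. Of all genes tested, 32% were called in this comparison, 16.3% higher and 15.7% lower. The receptors' median log2 difference was 0.17, beside 0.01 over all genes tested. The CPM did not overlap for 8 receptors, and for 64.7% of all genes tested. The comparison sets 1 engineered line against another, so differences that come from SMARCB1 leaking without Dox and differences between the lines of any other origin cannot be told apart.

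PDGFRA had 0.583 and 0.243 CPM in SMARCB1 DMSO and 65.0 and 69.5 in GFP DMSO, and was 165-fold lower in the former (95% interval 128 to 213; log2 −7.37 ± 0.175; adjusted p = 8.16e-19, edgeR). PDGFRB had 104 and 83.6 CPM against 126 and 141, and was 1.42-fold lower (log2 −0.51 ± 0.0948; adjusted p = 0.000227, edgeR). Both PDGF receptors were thus lower in the SMARCB1 line, PDGFRA by far the more. The log2 difference of PDGFRA was −8.09 without SMARCB1 DMSO replicate 1 and −6.84 without replicate 2. MET had 7.48 and 3.28 CPM against 1.63 and 0.964, and was 4.15-fold higher (95% interval 2.61 to 6.61; log2 2.05 ± 0.323; adjusted p = 3.09e-05, edgeR). Its log2 difference was 1.35 without SMARCB1 DMSO replicate 1 and 2.54 without replicate 2. EGFR had 529 and 405 CPM against 257 and 273, and was 1.76-fold higher (log2 0.82 ± 0.0984; adjusted p = 8.75e-07, edgeR). For both genes the lowest library of the SMARCB1 line was above the highest of the GFP line, Dox libraries included. IGF1R, at 436 and 389 CPM against 284 and 308, was 1.39-fold higher (log2 0.48 ± 0.0836; adjusted p = 0.000111, edgeR). FGFR4 was 1.43-fold higher (9.95 and 8.83 CPM against 6.66 and 6.49; log2 0.51 ± 0.15; adjusted p = 0.0113, edgeR). The FGFR4 call was lost without SMARCB1 DMSO replicate 1 (0.42, adjusted p = 0.0884) or GFP DMSO replicate 2 (0.49, adjusted p = 0.0804).

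Of the receptors called for the Dox effect, AXL, FGFR3 and FGFR2 did not pass the test between the lines, nor did FGFR1, which was not called on Dox either. AXL had a log2 difference of 0.01 (95% interval −0.20 to 0.23), FGFR3 of −0.18 (−0.53 to 0.17), FGFR2 of 0.14 (−0.05 to 0.33) and FGFR1 of 0.19 (0.01 to 0.37), with adjusted p-values of 0.0976 to 0.938 (edgeR). The comparison of the lines uses the same SMARCB1 DMSO libraries as the Dox effect does.

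**Figure D3:**
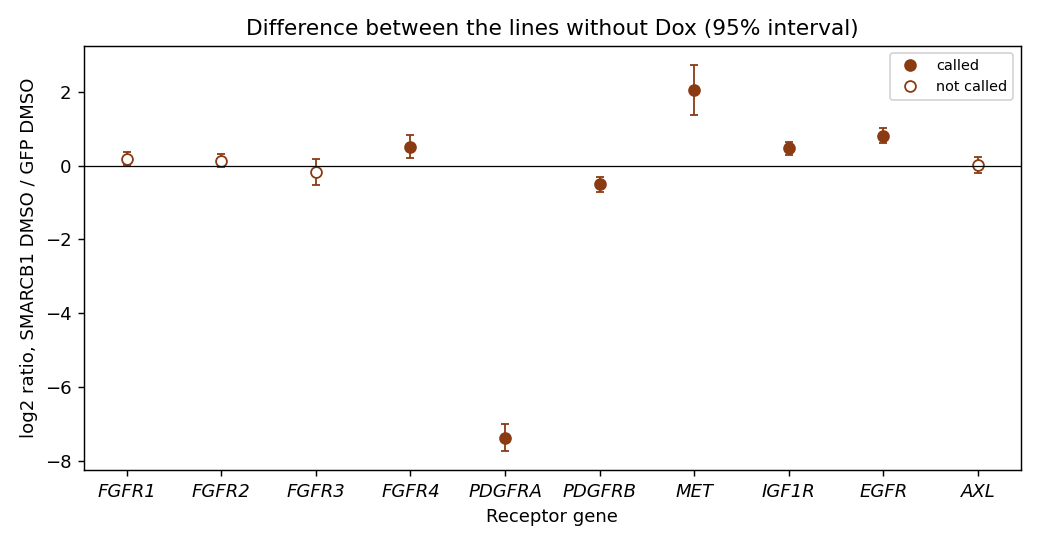
Log2 ratio of SMARCB1 DMSO to GFP DMSO for each receptor, with 95% intervals and filled points for calls. PDGFRA lies at −7.37, MET at 2.05 and EGFR at 0.82, while AXL lies at 0.01.

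Levels of different genes were compared per exon length, as TPM, which is scaled to the same total in every library, on the union of annotated exons. TPM served here to rank genes within a group, and the Dox effects are those given above. For FGFR1 and IGF1R these were 0.08 and −0.09 on the log2 scale, neither called. In SMARCB1 DMSO FGFR2 was the most abundant receptor (76.6 ± 0.561 TPM, SD), followed by IGF1R (62.3 ± 1.01), EGFR (61.4 ± 5.54) and FGFR1 (60.3 ± 0.0466), of which EGFR overlapped with both neighbours. PDGFRB (27.6), AXL (14.7), FGFR4 (4.11), FGFR3 (2.46), MET (1.53) and PDGFRA (0.0888 TPM) followed with no overlap. In SMARCB1 Dox FGFR1 led (72.9 ± 2.95 TPM), ahead of IGF1R (67 ± 4.65), FGFR2 (62.1 ± 7.96) and EGFR (56.7 ± 0.0501), where FGFR2 overlapped with both neighbours. AXL (42.6 ± 4.56 TPM) now stood above PDGFRB (30.8 ± 1.26) and FGFR3 (5.42 ± 0.288) above FGFR4 (4.44 ± 0.495), both without overlap. In the GFP line FGFR2 led without and with Dox (83.7 and 85.1 TPM), and MET was the lowest (0.453 and 0.392 TPM). PDGFRA, the lowest in the SMARCB1 line, was sixth in the GFP line at 17.9 TPM in GFP DMSO, where it overlapped with AXL (17.5), and at 18.9 in GFP Dox.

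With the longest transcript as the length, IGF1R ranked below FGFR1 and EGFR in SMARCB1 DMSO, FGFR1 above EGFR there, and IGF1R below FGFR2 and EGFR in SMARCB1 Dox, where FGFR4 stood above FGFR3. Among the GFP libraries EGFR then stood above IGF1R and PDGFRB, and PDGFRB above IGF1R in GFP Dox. FGFR2 still led in SMARCB1 DMSO and the GFP line and FGFR1 in SMARCB1 Dox, and AXL remained above PDGFRB in SMARCB1 Dox.

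Within a library, the share of 1 receptor in the summed TPM of all 10 does not depend on the scaling between libraries. AXL made up 4.77% and 4.66% of the receptor RNA in SMARCB1 DMSO, 13.5% and 11.3% on Dox, and 4.62% to 5.36% in the GFP line. FGFR2 made up 24.1% and 25.2% in SMARCB1 DMSO, 16.6% and 19.5% on Dox, and 24.3% to 26.2% in the GFP line. Both SMARCB1 Dox libraries were thus outside the range of the other 6 for either gene. PDGFRA made up 0.0188% to 0.108% in the SMARCB1 line and 5.29% to 5.64% in the GFP line. The TPM ratio of FGFR1 to FGFR2 was 0.792 and 0.783 in SMARCB1 DMSO, 1.33 and 1.05 on Dox, and 0.711 to 0.781 in the GFP line. The 4 FGF receptors together held 45.1% to 47.2% of the receptor RNA in 6 libraries and 41.8% and 42.5% in SMARCB1 Dox. Shares within a library add up to the whole, so the larger AXL share on Dox lowers the shares of the other receptors. A lower share is thus not in itself a fall in RNA, and the FGF receptors were not tested as a family.

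**Figure D4:**
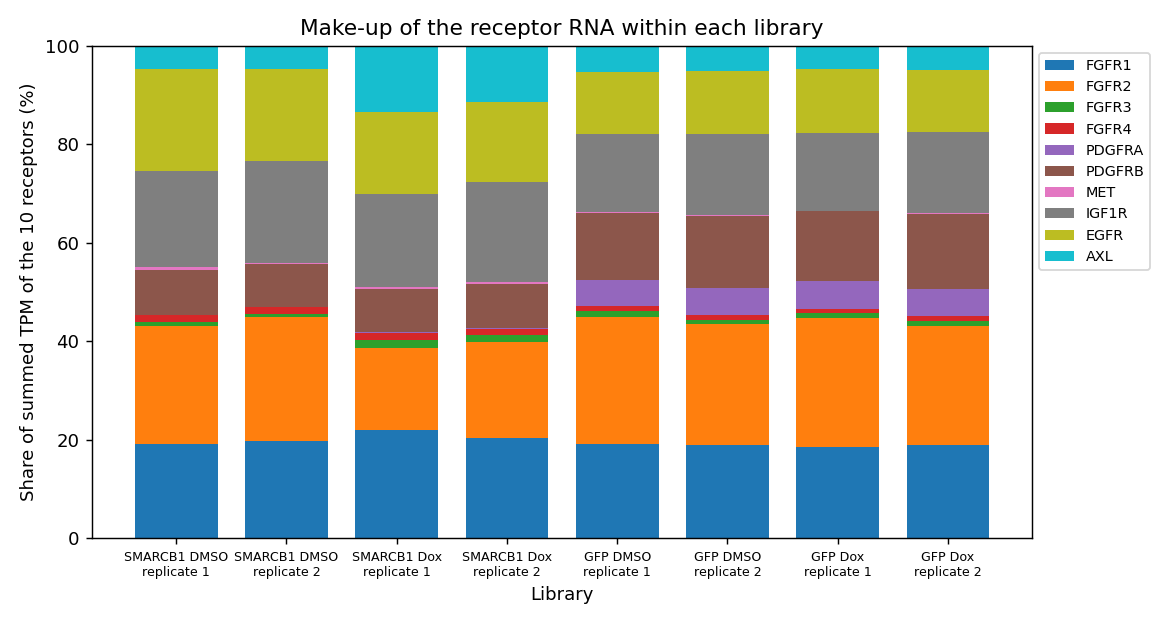
Share of each receptor in the summed TPM of the 10 receptors, stacked to 100% for each of the 8 libraries. The AXL segment is 13.5% and 11.3% in SMARCB1 Dox against 4.62% to 5.36% elsewhere, and PDGFRA is visible in the GFP line alone (5.29% to 5.64%).

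For each receptor, the gene with the most similar pattern was sought by Pearson's r of log2 CPM over the 8 libraries, among 9464 protein-coding genes at a mean of at least 5 CPM (9465 for MET). The libraries share groups, lines and depth, so r is given as a description. The pattern of AXL was closest to FOXO3B (r = 0.992), whose reads can be confused with those of its near-identical relative FOXO3. FGFR3 was closest to ITM2C (r = 0.996), which had 63.6 and 55.4 CPM in SMARCB1 DMSO, 80.8 and 77.3 on Dox and 58.8 to 65.2 in the GFP line. FGFR2 was closest to TMEM106B (r = 0.99), a lysosomal membrane protein, at 228 and 210 CPM in SMARCB1 DMSO and 135 and 158 on Dox. PDGFRA was closest to SLC39A8 (r = 0.999), a zinc and manganese transporter, at 1.1 and 0.607 CPM in SMARCB1 DMSO, 2.19 and 2.26 on Dox and 25.6 to 30.2 in the GFP line. MET was closest to the thiamine transporter SLC19A2 (r = 0.999), EGFR to POGLUT2 (0.998), IGF1R to the collagen gene COL5A2 (0.994), PDGFRB to ANKRD13B (0.992), FGFR1 to the amino acid transporter subunit SLC3A2 (0.99) and FGFR4 to the autophagy receptor OPTN (0.988).

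The ligands of the 10 receptors formed a list of 35 genes, of which 12 passed the expression filter. With SMARCB1, 2 were called higher and 2 lower, at a median log2 change of −0.04. Over all genes tested 14% were called, as above, 8.33% higher and 5.69% lower. PDGFA, which encodes a ligand of PDGFRA, had 1.1 and 0.971 CPM in SMARCB1 DMSO, 5.98 and 3.95 on Dox and 0.487 to 0.859 in the GFP line. The Dox libraries of the SMARCB1 line were thus several times above the other 6 (log2 2.26 ± 0.281; adjusted p = 8.41e-06, edgeR). The Dox effects of the lines differed by 2.73 for PDGFA (adjusted p = 0.00115, edgeR). FGF20, a fibroblast growth factor, fell from 12.1 and 11.3 CPM to 4.1 and 4.38 and stood at 8.85 to 10.7 in the GFP line (log2 −1.46 ± 0.147; adjusted p = 5.78e-07, edgeR). FGF5 fell by 0.63 and HBEGF, an EGFR ligand, rose by 0.39 on the log2 scale. The HBEGF call was lost with DESeq2, with only the groups compared, and without SMARCB1 DMSO replicate 2 or SMARCB1 Dox replicate 1.

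Among 48 other receptor tyrosine kinases, 26 passed the filter, of which 3 were higher and 1 lower, at a median of 0.10, a share near the 14% of all genes. The ephrin receptor EPHB2 had 1.27 and 0.698 CPM in SMARCB1 DMSO, 4.02 and 3.32 on Dox and 0.729 to 0.977 in the GFP line (log2 1.91 ± 0.301; adjusted p = 0.000132, edgeR). ERBB3, which pairs with other members of the EGFR family, went from 4.43 and 5.28 CPM to 1.4 and 2.32 and stood at 7.7 to 8.57 in the GFP line (log2 −1.39 ± 0.208; adjusted p = 7.79e-05, edgeR). For ERBB3 the Dox libraries were the lowest of the 8, and for EPHB2 the highest. TYRO3, a TAM receptor like AXL, rose by 0.45 and AATK by 0.75 on the log2 scale. TYRO3 had 26.3 and 21.4 CPM in SMARCB1 DMSO, 35.3 and 29.6 on Dox and 29.6 to 33.0 in the GFP line. On Dox it thus stood near the level of the GFP line. The AATK call held under 5 of 12 alternatives, and was lost with DESeq2, with the GC trend removed, with only the groups compared and without SMARCB1 DMSO replicate 1 or either SMARCB1 Dox library. The TYRO3 call was lost without SMARCB1 DMSO replicate 2 or SMARCB1 Dox replicate 1. The highest adjusted p over these alternatives was 0.276 for AATK and 0.145 for TYRO3.

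Of 8 co-receptors and decoys, 5 passed the filter, and 2 were higher and none lower (median 0.16), beside 8.33% and 5.69% of all genes. NRP2, a neuropilin that assists several growth factor receptors, had 11.5 and 9.55 CPM in SMARCB1 DMSO, 30.4 and 29.7 on Dox and 1.01 to 2.27 in the GFP line (log2 1.52 ± 0.169; adjusted p = 2.13e-06, edgeR). It was thus higher on Dox and, without Dox, already higher in the SMARCB1 line (log2 difference of the DMSO groups 2.88; adjusted p = 7.75e-10, edgeR). FGFRL1, which binds FGFs but lacks a kinase, rose by 0.37 on the log2 scale, from 99.8 ± 14.1 to 129 ± 1.25 CPM, a call lost when the GC trend was removed or SMARCB1 DMSO replicate 2 was left out. Without Dox FGFRL1 was lower in the SMARCB1 line than in the GFP line (log2 difference of the DMSO groups −0.55; adjusted p = 7.84e-05, edgeR).

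All 32 adaptors and effectors passed the filter, and the share called was also near the 14% of all genes. Of the 32, 5 were called higher and none lower (median 0.13), beside 8.33% and 5.69% of all genes. Among them were PIK3R1 (log2 1.63, 0.583 and 0.576 to 2.08 and 1.52 CPM), which encodes the regulatory subunit of PI3K, the docking protein GAB2 (0.62), the ERK kinase MAP2K1 (0.35) and PLCG1 (0.34). The calls of PIK3R1 (adjusted p = 0.118) and GAB2 (0.0625) were lost without SMARCB1 Dox replicate 1, and that of MAP2K1 (0.0693) without SMARCB1 DMSO replicate 2. No member of this list was called for the difference of the Dox effects. With library totals in place of TMM 11 members were called for the Dox effect, and without SMARCB1 Dox replicate 2 there were 3.

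Among 23 negative regulators, 21 passed the filter, and 2 were higher and 5 lower (median −0.12), beside 8.33% and 5.69% of all genes. DUSP6, a phosphatase of ERK whose gene is itself switched on by ERK, had 59.9 and 60.6 CPM in SMARCB1 DMSO, 45.3 and 36.3 on Dox and 55.3 to 67.5 in the GFP line (log2 −0.56 ± 0.0995; adjusted p = 0.000453, edgeR). ERRFI1, an inhibitor of EGFR, fell from 462 and 435 CPM to 310 and 315 (log2 −0.52 ± 0.0785; adjusted p = 8.03e-05, edgeR), and the phosphatase PTPN1 fell from 131 and 143 to 99.7 and 100 (−0.46). For all 3 the SMARCB1 Dox libraries were the lowest of the 8. LRIG2 also fell, by 0.37 on the log2 scale. In contrast, the receptor phosphatase PTPRJ rose from 11.4 and 8.61 CPM to 21.8 and 18.9 (log2 1.03 ± 0.145; adjusted p = 3.9e-05, edgeR), and LRIG1 rose by 0.83. Without Dox LRIG1 was lower in the SMARCB1 line than in the GFP line (log2 difference of the DMSO groups −0.95; adjusted p = 8.88e-05, edgeR). Of these genes, PTPRJ and LRIG1 were called higher and DUSP6, ERRFI1 and PTPN1 lower for the difference of the Dox effects. The difference calls of PTPRJ and LRIG1 were lost without SMARCB1 Dox replicate 1, and also without GFP Dox replicate 2 for PTPRJ and GFP DMSO replicate 2 for LRIG1. That of PTPN1 was lost without GFP DMSO replicate 1 or GFP Dox replicate 1 and with library totals (highest adjusted p of the 3 genes 0.0908).

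**Figure D5:**
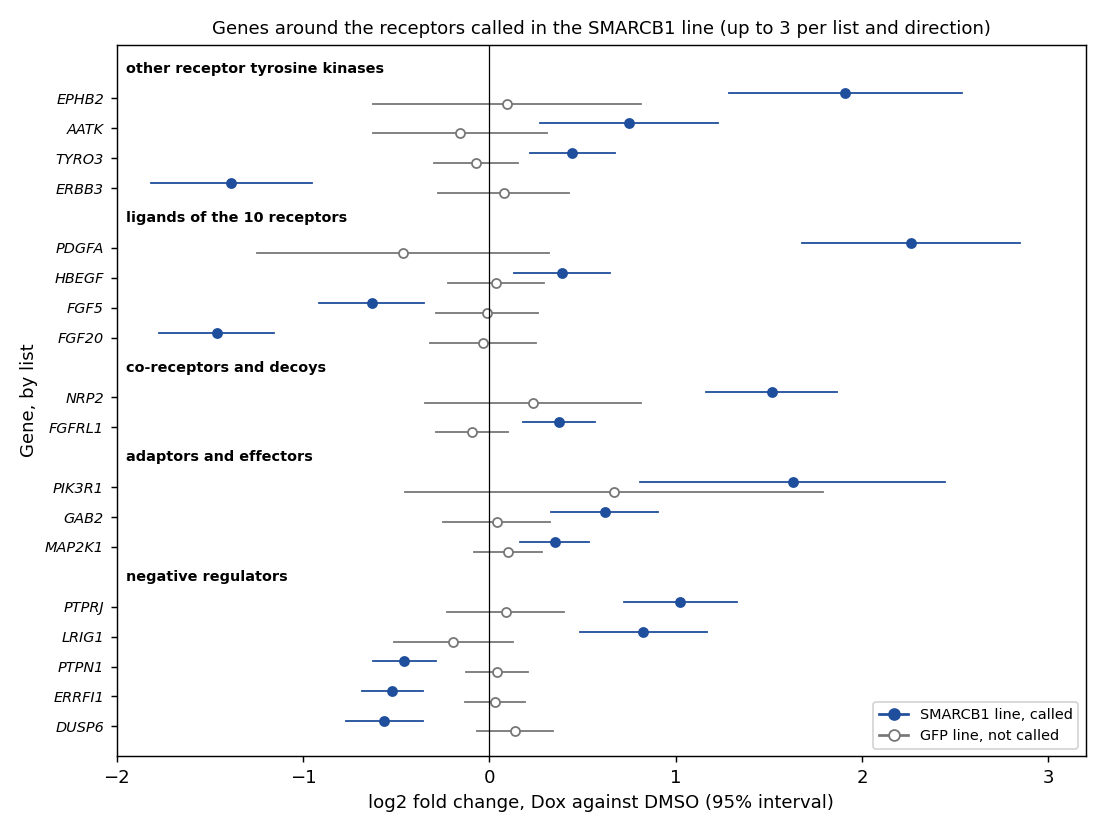
Dox effect (log2 fold change against DMSO, 95% interval) on genes of the 5 lists around the receptors that were called in the SMARCB1 line, up to 3 per list and direction, in the SMARCB1 line (blue) and the GFP line (grey, not called). PDGFA (2.26), EPHB2 (1.91) and PIK3R1 (1.63) lie farthest above 0 and FGF20 (−1.46) and ERBB3 (−1.39) farthest below, while in the GFP line no interval excludes 0.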

How the data were processed

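The deposited files held raw read counts per gene for 8 libraries. The authors aligned with STAR and counted exon reads with HTSeq in intersection-strict mode on GENCODE v42, and the labels name hg38. Versions and the strand option are not given in the sources used here. The sample labels name a ribosome profiling kit and the study's methods a directional RNA kit, so the library chemistry is uncertain. Entries that name no gene (27% to 29.3% of reads) were left out. Replicates differed by more than counting noise (chi-square per degree of freedom 8.01 to 21.9).

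Genes were tested with edgeR 4.0.16 (R 4.3.3) on the deposited counts, with its default filter on low counts and TMM scaling. A quasi-likelihood model held all 8 libraries, with a mean for each group. The comparisons were Dox against DMSO in each line, the difference of these effects and SMARCB1 DMSO against GFP DMSO, with calls at a Benjamini-Hochberg adjusted p under 0.05. Standard errors were taken as the log2 change over the root of F. DESeq2 1.42.0, the tool of the study, was an alternative. Others were RLE factors, library totals, no filter, the replicate number as a block, GC trend removal, only the groups compared and leaving out each library. GC trend removal without the block, and the recomputation of the listed genes, were chosen after seeing the data. TPM used GENCODE v44 exon lengths on GRCh38, which matched 62625 of 69168 genes. It served to rank genes within a group and to give shares and ratios of receptors within a library. Libraries were assigned from sample titles.

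The 10 receptors and the 5 gene lists around them were chosen with earlier results of these data known. From each list and comparison, up to 3 called genes in each direction with the largest change, at a mean of at least 1 CPM, are named. PLCG1 and LRIG2 were named after their values were seen. Other called genes of the lists enter the counts only. The steps were tested on simulated data. Intervals from counts cover counting error only and leave out the spread between libraries. They treat reads as independent, which PCR copies are not, so they can be too narrow.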

Additional observations from a re-analysis of the deposited data

Results flagged for a closer look

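For 4 receptors the response to Dox was not the same in both lines, by a test of the difference itself (edgeR interaction contrast, adjusted over 15931 genes). The differences were 1.75 for PDGFRA, 1.53 for AXL, 1.08 for FGFR3 and −0.47 for FGFR2 on the log2 scale, with adjusted p-values of 0.00148, 6.42e-06, 0.00755 and 0.0331. Of all genes tested, 4.71% passed this test. The FGFR2 call held under 7 of 15 alternatives. PDGFRA had only 8 to 51 counts a library in the SMARCB1 line, and its difference is one of ratios from very unlike levels in the lines.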

How the results depend on the processing

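Of 510 recomputed receptor effects, 448 kept their direction and side of the threshold, 41 changed sign, 16 lost a call and 5 gained one. No effect that changed sign was called either before or after. The number of receptors called ran from 4 to 6 for Dox in the SMARCB1 line, 3 to 5 for the difference and 5 to 7 between the lines, and was 0 in the GFP line throughout. The Dox effects of AXL (1.20 to 1.49), FGFR3 (0.75 to 1.15), PDGFRA (1.25 to 2.50) and FGFR2 (−0.61 to −0.40) were called under all 12 alternatives. The differences of AXL, FGFR3 and PDGFRA were called under all 15, with FGFR3 at an adjusted p of up to 0.0498.

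The Dox call of EGFR held under 6 of 12 alternatives. It was lost with library totals (−0.22, adjusted p = 0.128), with only the groups compared (−0.32, 0.0841) and with the GC trend removed without the block (−0.28, 0.0703) but not with it (−0.28, 0.0196), and ran from −0.50 to −0.11 when 1 library was left out. The difference of FGFR2 held under 7 of 15, and was −0.42 with the GC trend removed, not called without the block (0.0569) and called with it (0.0138), and −0.57 to −0.37 with 1 library left out. EGFR gained a call for the difference without SMARCB1 DMSO replicate 2 (−0.48, 0.0157), and FGFR1 gained one between the lines without it (0.29, 0.0229). The causes were not tested.

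Uncalled effects changed sign as follows. With library totals, the change in the SMARCB1 line was 0.014 for FGFR4, 0.054 for PDGFRB and 0.0048 for IGF1R, that of EGFR in the GFP line was 0.0014, the differences were 0.030 for PDGFRB, 0.054 for MET and 0.031 for IGF1R, and AXL between the lines was −0.11. With the GC trend removed, the differences were −0.10 for FGFR4 and 0.027 for MET. With 1 library left out, the change in the SMARCB1 line ran from −0.020 to 0.18 for FGFR1, −0.23 to 0.055 for FGFR4, −0.19 to 0.12 for PDGFRB and −0.80 to 0.39 for MET. In the GFP line it ran from −0.096 to 0.023 for FGFR2, −0.29 to 0.015 for FGFR3, −0.025 to 0.067 for PDGFRA, −0.072 to 0.091 for PDGFRB, −0.62 to 0.13 for MET, −0.099 to 0.014 for IGF1R and −0.057 to 0.025 for EGFR. The differences ran from −0.11 to 0.18 for FGFR4, −0.20 to 0.11 for PDGFRB, −0.52 to 0.66 for MET and −0.13 to 0.034 for IGF1R, and the line comparison from −0.39 to 0.014 for FGFR3 and −0.13 to 0.15 for AXL.

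The replicate numbers were not taken as pairs, since the deviations of same-numbered libraries correlated at 0.0309 to 0.148, 1 of 6 above 0.1. All 6 were positive, and the highest was that of SMARCB1 DMSO with SMARCB1 Dox. With the replicate number as a block, 5 receptors were called for Dox in the SMARCB1 line, 0 in the GFP line, 4 for the difference and 7 between the lines, where FGFR1 was added (0.19, adjusted p = 0.0401, and 0.17, 0.0383, with the GC trend also removed). The block moved the difference of MET to 0.0069. The block with the GC trend removed moved it to 0.071, the difference of FGFR4 to −0.11 and AXL between the lines to −0.0055. Over all genes the block gave 3149 calls for the Dox effect against 2234, 1282 against 750 for the difference and 5977 against 5105 between the lines.

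Over all genes, library totals moved the share of higher calls for the Dox effect from 59.4% to 80.0%, for the difference from 65.2% to 80.8% and between the lines from 50.9% to 32.1%, and the median log2 difference between the lines from 0.01 to −0.10. Relative to that shift AXL between the lines stayed near 0. The 18 listed genes named for the Dox effect kept their calls in 197 of 216 recomputed values and their direction in all of them, as did 140 of 165 values for the difference. For the adaptors and effectors, 9 members were called with the block and 11 with the block and GC trend removal, against 5. When 1 library was left out, calls over all genes ran from 1284, without SMARCB1 Dox replicate 1, to 2009 for the Dox effect, and from 390, without GFP Dox replicate 1, to 805 for the difference. At 8 to 51 counts for PDGFRA and 108 to 218 for MET in the SMARCB1 line, depth limits the precision of both.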

Other observations

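The genes around the receptors also differed between the lines without Dox, in a comparison that called 32% of all genes, 16.3% higher and 15.7% lower. Of the 21 tested negative regulators, 5 were higher and 6 lower in SMARCB1 DMSO than in GFP DMSO (median log2 difference −0.07). SPRY2, a Sprouty inhibitor of RAS to ERK signalling, had 13.0 and 11.5 CPM in SMARCB1 DMSO, 14.4 and 11.1 on Dox and 0.065 to 0.313 in the 4 libraries of the GFP line (log2 5.60 ± 0.279, adjusted p = 3.41e-13, edgeR). SPRY2 rested on few reads in the GFP line, where its lowest library was under the floor of 3 counts (0.0798 to 0.101 CPM). SPRY1, a relative of SPRY2, had 101 and 104 CPM against 45.4 and 45.1 (log2 1.18). DUSP5, another phosphatase of ERK, was higher by 0.63 on the log2 scale. LRIG1 was lower, at 5.42 and 4.73 CPM against 8.65 and 10.8 (log2 −0.95), as were SPRED2 (−0.38) and the ubiquitin ligase CBL (−0.29).

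Of the 32 adaptors and effectors, 6 were higher and 7 lower (median −0.05), again beside 16.3% and 15.7% of all genes. The docking protein GAB1 had 21.8 and 18.3 CPM in SMARCB1 DMSO and 56.0 and 62.2 in GFP DMSO (log2 −1.56 ± 0.105, adjusted p = 6.89e-11, edgeR), with STAT3 (−0.52) and MAPK3 (−0.49) also lower and AKT1 (0.52), PIK3CB (0.36) and NRAS (0.34) higher. Of the 26 tested other receptor tyrosine kinases, 7 were higher, among them FLT4 (0.86), INSR (0.77) and EPHA2 (0.42), and 8 lower, among them DDR1 (−0.92), LMTK3 (−0.86) and EPHB3 (−0.82), at a median of 0.04. Of the 12 tested ligands, PDGFB was higher, at 35.6 and 26.4 CPM against 16.2 and 15.9 (log2 0.95 ± 0.151, adjusted p = 3.64e-05, edgeR), and PROS1 lower (−0.48), with 2 higher and 1 lower in all. Of the 5 tested co-receptors and decoys, NRP2 (2.88) and IGF2R (0.42) were higher and FGFRL1 (−0.55) lower. The calls of EPHA2 and MAPK3 were lost without SMARCB1 DMSO replicate 1, that of PROS1 without replicate 2, and that of NRAS without GFP DMSO replicate 2 or with library totals. Without SMARCB1 DMSO replicate 1, 9 other receptor tyrosine kinases were called in place of 15, and 8 adaptors and effectors in place of 13.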
